A study of Mus musculus with 18 samples.

Results

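Oxidative phosphorylation subunits encoded in the nucleus were examined by complex in cell lines made from mouse pancreatic tumours. The members are every gene of the expression table named Ndufa, Ndufb, Ndufc, Ndufs or Ndufv, Sdha to Sdhd, Uqcr, Cox4 to Cox8 or Atp5, together with Cyc1 and Cycs, with 16 rows named as pseudogenes left out. They are 93 of the 35642 genes listed: 41 of complex I, 4 of complex II, 9 of complex III, 20 of complex IV with Ndufa4 counted there, 17 of complex V, cytochrome c itself (Cycs), and Ndufa4l2, a paralog of Ndufa4. The choice used gene names alone and no measured value.

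Oxidative phosphorylation is the set of reactions by which mitochondria turn the electrons of NADH and succinate into ATP. Complexes I and II pass these electrons to ubiquinone, complex III passes them to cytochrome c, complex IV passes them to oxygen, and complex V, the ATP synthase, makes ATP from the proton gradient that complexes I, III and IV build. Most subunits are encoded in the nucleus and a few in mitochondrial DNA, so each complex except complex II needs both genomes. The mitochondrial calcium uniporter, whose pore is the protein of Mcu, lets calcium into the matrix, where calcium activates dehydrogenases that feed this chain.

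All cells came from tumours of KPCY mice, which carry, among other alleles, Trp53 LSL-R172H/+, Pdx1-Cre and a Cre-dependent Yfp reporter at R26 (R26 LSL-Yfp/LSL-Yfp), so that Cre acts in the pancreatic lineage. Polyadenylated RNA was sequenced in 18 libraries, 3 in each of 6 groups of untreated cells. In line 1151 both arms carry a Cre knockout of Mcu and were kept in 2 μg/mL puromycin, and they differ in the vector: one arm is labelled empty vector and the other is labelled MCU re-expressing. In line 2838 the groups are the clones 15 and 22, labelled Mcu wild type with empty vector, and the clones 17 and 42, labelled CRISPR knockout. Each group of line 2838 is 1 clone, the labels put line 1151 in batch 1 and line 2838 in batch 2, and line and batch therefore cannot be told apart. Whether replicate libraries stem from independent dishes is not given in the labels, and the p-values below therefore reflect the spread between libraries, which may be technical.

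The level of Mcu was checked against the labels first. It did not separate the arms of line 1151, and it was not low in clone 17. It measured 16.6, 15.1 and 13.3 TPM in the 3 libraries labelled empty vector and 14.4, 15.2 and 13.1 TPM in the 3 labelled MCU, where TPM is a gene's transcript abundance, scaled for length and to a fixed total per library. In line 2838 the clones labelled wild type lay between 59.3 and 96.3 TPM, knockout clone 42 lay between 10.5 and 12.3 TPM, and knockout clone 17 lay between 113 and 122 TPM, above every wild-type library. Directions below are therefore those of the labels, and clone 17 is given apart from clone 42. The labels do not say whether RNA from the vector is counted as Mcu, and RNA does not show how much protein is made. The reason for these levels was not tested. Replicate 3 of wild-type clone 22 stood apart from its group, with correlations of log2 values as low as 0.921 within that clone, and replicate 3 of the empty-vector arm lay between its own group and the other arm. Of 7 ductal epithelial markers 6 or 7 reached 1 TPM in each group, with summed levels of 4458 to 6950 TPM. Krt8 and Krt18 were the highest of them and Epcam the lowest. Epcam lay between 0.898 and 1.67 TPM in the libraries labelled empty vector of line 1151 and at most at 0.699 TPM in all others. None of 5 fibroblast markers reached 1 TPM. Of 3 endothelial markers 2 reached 1 TPM in line 1151, a different one in each arm. Kdr, a receptor of vascular growth factor, measured 8.24, 8.66 and 8.63 TPM in the libraries labelled empty vector and at most 0.859 TPM in those labelled MCU, while Cdh5, an endothelial cadherin, was at most 0.0170 TPM in the first and 4.84, 4.63 and 5.31 TPM in the second. Their sums were 8.32 to 8.77 TPM and 5.60 to 6.10 TPM. Of 4 listed acinar markers 1 reached 1 TPM and only in line 2838, with Cela1, an elastase, at 16.4 to 28.8 TPM in the wild-type label and 9.21 to 13.6 TPM in the knockout label, and Cpa1 and Ptf1a were at 0 in all libraries. Of 4 leukocyte markers Cd68 alone reached 1 TPM, at 1.26 to 2.41 TPM in line 1151 and 2.66 to 6.29 TPM in line 2838, and of 2 erythroid markers 1 did, with sums of at most 3.34 TPM. The part of these markers in the results was not tested.

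Of the 93 members, 80 had a mean of at least 20 TPM over the 18 libraries and 82 passed the filter for testing, which was 1 TPM in 3 libraries of the fit. Over the members with 20 TPM or more, the median level was 146 TPM in complex I, 162 TPM in complex II, 329 TPM in complex III, 416 TPM in complex IV and 327 TPM in complex V. Atp5b, the catalytic beta subunit of the synthase, was the highest member at a mean of 2368 TPM. The highest member differed between the lines in complexes I, II, III and IV. In complex I, Ndufb8 led line 1151 at 387 TPM beside 385 TPM for Ndufa7, and Ndufa7 led line 2838 at 444 TPM. In complex II, Sdhd led line 1151 at 192 TPM and Sdha led line 2838 at 180 TPM. In complex IV, Cox8a, a small subunit, had a mean of 1414 TPM in line 1151 and 731 TPM in line 2838, where Cox4i1 at 993 TPM was above it. In complex III, the small subunit Uqcr11 led line 1151 at 475 TPM beside 457 TPM for Uqcrq, and Uqcrq led line 2838 at 429 TPM. Cycs, the mobile electron carrier, had a mean of 57.4 TPM.

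Most subunit isoforms known from muscle, lung or testis were at or near the floor, with the muscle isoform Cox7a1 as the exception. Cox4i2, an isoform of lung and hypoxic cells, was listed at 0 in 16 of 18 libraries and reached at most 0.147 TPM. Cox6a2, the heart and muscle isoform, reached at most 0.803 TPM, Cox6b2, a testis isoform, 0.211 TPM, and Ndufa4l2, a gene induced by hypoxia, 0.417 TPM. Ndufb11b, Ndufs6b, Cox6c2, Cox7b2, Cox8b and Cox8c were listed at 0 in all 18 libraries, and Ndufa11b was at 0 in 16. Among them Ndufs6b, Cox6c2 and Ndufa11b are annotated as processed pseudogenes, although their names do not mark them so. Ndufb11b had no match in the annotation. Cox7a1, the muscle isoform of subunit 7a, was detected in every library at 3.83 to 14.8 TPM with a mean of 8.33 TPM, and Cox6a1, the isoform of most other tissues, had a mean of 4.36 TPM. These 2 genes were the tested members below 20 TPM.

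Some members share their sequence with other genes, and a transcript quantifier can divide reads between them. Atp5g2, 1 of 3 genes for the same mature subunit c of the synthase, was listed at 77.6 TPM and its copy Gm10175, identical over the shorter transcript, at 727 TPM. Ndufb4 of complex I stood at 28.1 TPM beside 197 TPM for Ndufb4c, which the naming rule also counts as a member. Cycs at 57.4 TPM had the copies Gm10053 at 173 TPM and Gm10108 at 14.7 TPM, and Atp5l, subunit g of the synthase, at 359 TPM had the copies Gm10221 at 68.0 TPM and Gm4045 at 2.32 TPM. Values of these members are uncertain to that extent, and sums with the copies are given beside the results they touch.

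Promoters of the members are known for sites of NRF1, an activator of respiratory genes, and of ETS factors such as GABP, and these were searched, with the motifs of ESRRA and YY1, in the 300 bases around each start site, 250 before and 50 after it, in RefSeq's table for GRCm38.p6. The palindromic NRF1 motif stood in 5 of the 68 tested members with a promoter in the table (7.35%), and in 1.07% of the 27025 genes of the table. The ETS motif CCGGAAG, or CTTCCGG on the other strand, stood in 17 of the 68 (25%) and in 9.93% of all genes. The YY1 motif stood in 4 of the 68 (5.88%), against 0.755% of all genes, and the 4 were the complex I genes Ndufa9, Ndufs4, Ndufs6 and Ndufs7. The ESRRA motif TCAAGGTCA stood in 2 of the 68 (2.94%) and in 0.466% of all genes. The 68 members passed the filter for testing and the 27025 genes were not held to it, so these shares come from unlike sets. Both strands were searched, none of the 4 motifs contains another, and a match is a description of the letters and not a bound site. The 4 promoters below are shown because they cover both directions in line 1151: Cox6a1 and Ndufa11 were higher in the libraries labelled empty vector, Ndufb6 was lower, and the 3 empty-vector libraries of Atp5k lay far apart. They are written 5′ to 3′ on the strand of the gene, with the NRF1 and ETS motifs in capitals.
Cox6a1, chr5:115348909-115349208, minus strand: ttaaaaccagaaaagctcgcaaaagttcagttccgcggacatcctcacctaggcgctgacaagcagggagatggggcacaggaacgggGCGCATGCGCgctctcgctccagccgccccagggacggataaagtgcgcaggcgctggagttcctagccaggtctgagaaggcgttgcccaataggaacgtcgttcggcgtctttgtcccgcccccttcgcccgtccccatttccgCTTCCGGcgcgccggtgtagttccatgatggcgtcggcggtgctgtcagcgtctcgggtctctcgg
Atp5k, chr5:108434350-108434649, minus strand: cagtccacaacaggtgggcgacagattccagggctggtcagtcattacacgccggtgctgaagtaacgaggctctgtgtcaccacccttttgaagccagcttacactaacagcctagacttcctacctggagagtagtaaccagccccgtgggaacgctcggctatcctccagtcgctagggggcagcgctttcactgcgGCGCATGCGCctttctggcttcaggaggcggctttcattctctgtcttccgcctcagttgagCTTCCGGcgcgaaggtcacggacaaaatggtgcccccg
Ndufa11, chr17:56717512-56717811, plus strand: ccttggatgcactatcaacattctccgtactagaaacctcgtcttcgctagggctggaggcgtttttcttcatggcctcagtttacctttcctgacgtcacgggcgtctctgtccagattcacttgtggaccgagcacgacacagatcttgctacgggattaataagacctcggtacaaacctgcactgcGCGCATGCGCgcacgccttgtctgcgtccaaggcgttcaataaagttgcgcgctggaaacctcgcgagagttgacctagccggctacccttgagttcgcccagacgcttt
Ndufb6, chr4:40279372-40279671, minus strand: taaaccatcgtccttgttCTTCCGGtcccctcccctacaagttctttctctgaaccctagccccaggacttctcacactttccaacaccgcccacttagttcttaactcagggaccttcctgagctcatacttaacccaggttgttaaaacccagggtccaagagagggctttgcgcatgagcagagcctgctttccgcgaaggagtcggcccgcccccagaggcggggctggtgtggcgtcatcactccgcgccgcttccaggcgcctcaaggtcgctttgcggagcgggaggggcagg
The NRF1 motif is in the promoters of Cox6a1, Atp5k and Ndufa11, and the ETS motif is in those of Cox6a1, Atp5k and Ndufb6.

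In line 1151, the design compares Cre-knockout cells labelled empty vector with those labelled MCU re-expressing. Each vector is in 1 arm only, so the vector and any other difference between the arms cannot be told apart. More members were lower than higher in the libraries labelled empty vector. Of 82 tested members, 36 fell and 9 rose relative to the libraries labelled MCU, by limma on log2(TPM + 1) with Benjamini-Hochberg adjustment over 11630 genes and an adjusted p under 0.05. Among all genes tested 61.0% passed, 34.0% higher and 27.0% lower, and of the members 43.9% were lower, so their share that fell was larger and their share that rose smaller than over all genes. In RNA from whole cultures, fewer cells of a type and less RNA per cell cannot be told apart. The members' median log2 difference was −0.28 beside 0.05 for all genes. The values of the 2 arms did not overlap, with the empty-vector arm below, in 35 members (29.8% of all genes) and did not overlap with that arm above in 13 (37.4% of all genes). Each difference is one of mean log2(TPM + 1), a scale that understates changes of low genes.

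**Figure D1:**
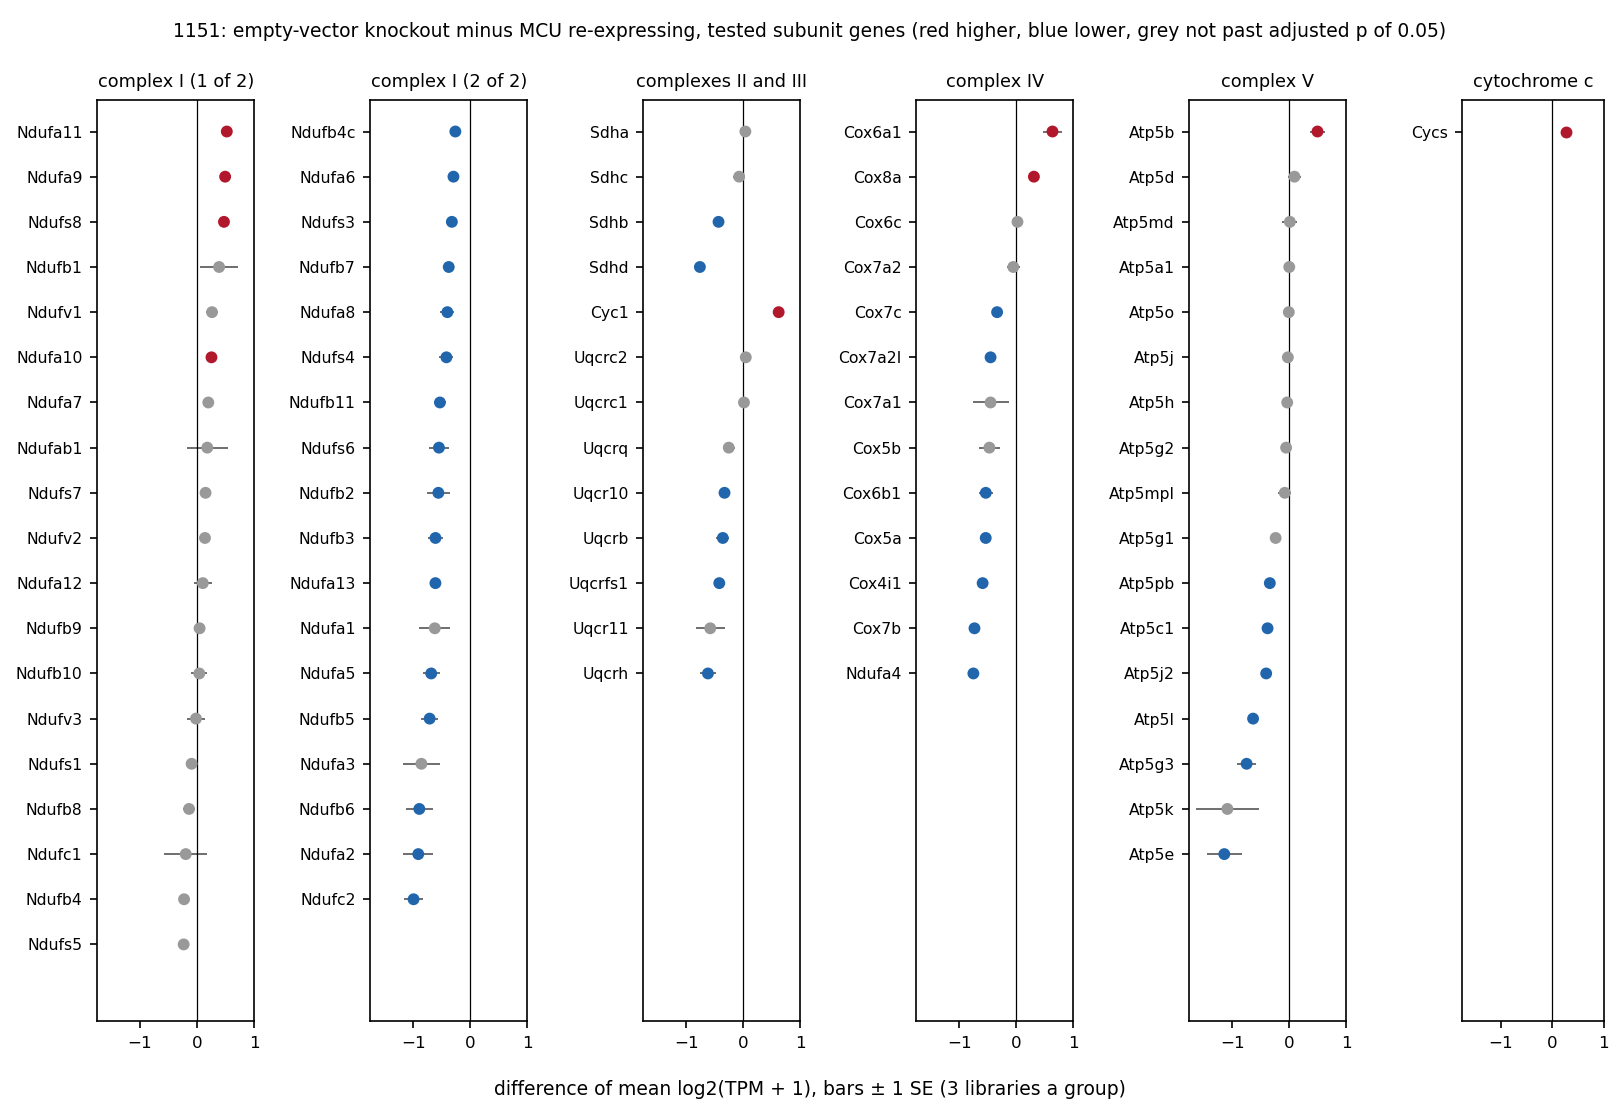
Log2 difference between the libraries labelled empty vector and those labelled MCU in line 1151 for 81 of the 82 tested members, by complex, with bars for the standard error. Members past the adjusted p of 0.05 are red where higher and blue where lower, the others are grey, and coloured points lie on both sides of 0 in complexes I, III, IV and V, and Atp5e of complex V is lowest at −1.14.

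Complex I takes electrons from NADH, and its peripheral arm in the matrix carries the flavin and iron-sulfur clusters while its membrane arm pumps protons. Of 38 tested complex I members 17 fell and 4 rose, with a median difference of −0.25. The membrane arm accounted for 9 that fell and 2 that rose among 20, with a median of −0.39. The peripheral arm accounted for 7 that fell and 2 that rose among 16, with a median of −0.06. Ndufb4c, counted in neither arm, fell too, and is annotated as a processed pseudogene that shares its sequence with Ndufb4. Ndufb4 and Ndufb4c summed to 241 ± 13.5 TPM in the libraries labelled empty vector and 288 ± 17.6 TPM in those labelled MCU (SD, n = 3 libraries each). Of the 7 core subunits, which are shared with bacteria and hold the redox centres, 2 fell and 1 rose, and of the 30 accessory subunits among these 14 fell and 3 rose. These counts moved when each library was centred along transcript length, or each chromosome on its own median, as described below. In the peripheral arm 4 fell and 6 rose with length centring (median 0.11), and 8 fell and 1 rose with chromosome centring (median −0.28). In the membrane arm 7 fell and 3 rose with the first (median −0.19), and 11 fell and 2 rose with the second (median −0.45). The core subunits had a median of 0.14 as fitted, with length centring 1 fell and 4 rose (median 0.23), and with chromosome centring 4 fell and 0 rose (median −0.19), so that their direction depended on the centring.

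Ndufc2, an accessory subunit of the membrane arm, changed most in complex I. It measured 70.1, 71.3 and 109 TPM in the libraries labelled empty vector and 159, 175 and 157 TPM in those labelled MCU. All 3 empty-vector libraries were below the other arm, with replicate 3 nearest to it, and the log2 difference was −0.99 ± 0.17 (SE, adjusted p = 0.002). Ndufb6, another membrane-arm subunit, measured 67.0, 69.3 and 126 TPM against 167, 158 and 144 TPM. Its arms did not overlap either, and the log2 difference was −0.89 ± 0.23 (adjusted p = 0.014). Ndufb5 measured 75.9, 68.4 and 103 TPM against 141, 131 and 129.9 TPM, a difference of −0.71 ± 0.15 (adjusted p = 0.0047). Ndufa2 of the peripheral arm, with 165, 169 and 340.4 TPM against 394, 405 and 398 TPM, showed the same arrangement, with 2 empty-vector libraries far below and replicate 3 close to the other arm.

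The core subunits were less uniform. Ndufs3, a subunit of the peripheral arm, measured 84.7, 79.0 and 78.5 TPM in the libraries labelled empty vector and 110.5, 94.0 and 99.4 TPM in those labelled MCU, a difference of −0.32 ± 0.07 (adjusted p = 0.0074). Every empty-vector library was below the other arm. Ndufs8, which carries iron-sulfur clusters, ran the other way with 268, 270.3 and 284 TPM against 199, 205 and 189.8 TPM and a difference of 0.47 ± 0.05 (adjusted p = 0.00033). Ndufs1, Ndufv1, Ndufv2 and Ndufs7, which hold other clusters or the flavin, did not pass, with differences of −0.10, 0.26, 0.14 and 0.15 and adjusted p of 0.26, 0.075, 0.074 and 0.071.

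Ndufa9, Ndufa10 and Ndufa11 were the accessory subunits that rose. Ndufa9, which lies near the ubiquinone site, measured 114, 112 and 116 TPM against 80.0, 83.0 and 79.8 TPM, a difference of 0.49 ± 0.05 (adjusted p = 0.00014). Ndufa11, at the contact with complex III in supercomplexes, measured 225, 228 and 237 TPM against 158, 166 and 156 TPM, a difference of 0.52 ± 0.05 (adjusted p = 0.00016). For both genes the replicates of an arm lay close together and the arms were far apart. Ndufa10 rose less, by 0.25 ± 0.09, with an adjusted p of 0.049.

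Complex II, succinate dehydrogenase, links the citric acid cycle to ubiquinone and is encoded in the nucleus alone. Its 4 genes divided, with 2 that fell and 2 that did not pass. Sdhd, a membrane anchor, measured 129.5, 137 and 161 TPM in the libraries labelled empty vector and 246, 242 and 235 TPM in those labelled MCU, a difference of −0.76 ± 0.09 (adjusted p = 0.00029). Sdhb, the iron-sulfur subunit, measured 123, 117 and 137 TPM against 169, 178 and 162 TPM, a difference of −0.43 ± 0.07 (adjusted p = 0.002). The arms were apart in both. Sdha, the flavoprotein, differed by 0.04 ± 0.06 and Sdhc, the other anchor, by −0.07 ± 0.10, with adjusted p of 0.6 and 0.57.

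In complex III, 4 of 9 members fell and 1 rose, with a median of −0.33. Uqcrh, the hinge protein at the cytochrome c1 side, measured 293, 324 and 432 TPM against 501, 568 and 522 TPM, a difference of −0.62 ± 0.14 (adjusted p = 0.008). Uqcrfs1, the Rieske iron-sulfur protein, measured 106, 113 and 136 TPM against 158, 166 and 150.2 TPM, a difference of −0.42 ± 0.10 (adjusted p = 0.0089). Uqcrb and Uqcr10, small subunits, fell as well, with log2 differences of −0.36 and −0.33. Cyc1, cytochrome c1 itself, rose, with 327, 344 and 290.1 TPM against 215, 187 and 223 TPM, a difference of 0.62 ± 0.09 (adjusted p = 0.0011). The large core proteins Uqcrc1 and Uqcrc2, which help to stabilise the complex, differed by 0.01 ± 0.06 and 0.04 ± 0.08.

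Complex IV had the lowest median difference, −0.45, with 7 of 13 tested members lower and 2 higher. Ndufa4, a subunit of complex IV despite its name, measured 515, 556 and 619 TPM in the libraries labelled empty vector and 953, 938 and 948 TPM in those labelled MCU, a difference of −0.75 ± 0.08 (adjusted p = 0.00019). Cox7b measured 156, 171 and 156 TPM against 275, 241 and 289 TPM, a difference of −0.73 ± 0.08. Cox4i1, the regulatory subunit that binds ATP, measured 538, 549 and 561 TPM against 861, 782 and 840.4 TPM, a difference of −0.59 ± 0.06. In these 3 genes all empty-vector libraries lay well below the other arm, with adjusted p from 0.00018 to 0.00026.

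Cox5a and Cox6b1, the subunit that joins the dimer, also fell, with log2 differences of −0.54 and −0.53. Cox7a2l, which places complex IV in supercomplexes, measured 177, 171 and 209 TPM against 242, 259 and 258 TPM, a difference of −0.45 ± 0.08 (adjusted p = 0.0032). Its paralogs Cox7a1 and Cox7a2 did not pass, with differences of −0.45 ± 0.32 and −0.05 ± 0.11. Cox8a, the most abundant subunit in this line, rose, with 1471, 1556 and 1667 TPM against 1331, 1206 and 1254 TPM and a difference of 0.31 ± 0.08 (adjusted p = 0.011). Cox6a1 rose from a low level, with 7.48, 8.34 and 9.15 TPM against 4.91, 6.42 and 3.91 TPM and a difference of 0.63 ± 0.16 (adjusted p = 0.012).

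In complex V, the ATP synthase, 6 of 17 members fell and 1 rose, and the median of −0.08 was nearest to that of all genes. Atp5e, the epsilon subunit of the catalytic head, measured 272, 332 and 662 TPM in the libraries labelled empty vector and 916, 852 and 823 TPM in those labelled MCU. Empty-vector replicate 3 lay between the others and the MCU libraries, and the difference was −1.14 ± 0.30 (adjusted p = 0.015). Atp5k, subunit e, which helps to join synthase dimers, measured 55.9, 115 and 297 TPM against 279, 213 and 309.9 TPM. Empty-vector replicate 3 lay among the MCU libraries, and the difference of −1.08 ± 0.54 did not pass (adjusted p = 0.12). Without that library it was −1.71 and passed (adjusted p = 0.0033). Atp5j2, another subunit that fell, measured 299, 285 and 359 TPM against 424, 393 and 429 TPM. Atp5l, subunit g, measured 309.7, 345 and 394 TPM against 548, 547 and 527 TPM, a difference of −0.63 ± 0.09 (adjusted p = 0.00088). Summed with its copies, Atp5l stood at 635 ± 206 TPM against 668 ± 104 TPM (SD, n = 3 libraries each), with 38.0% and 17.5% of the sum on the copies, a difference of −0.12 that did not pass (adjusted p = 0.71).

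The catalytic and rotor subunits of the synthase went different ways. Atp5b, the beta subunit, rose, with 3336, 3589 and 3299 TPM against 2766, 1994 and 2569 TPM and a difference of 0.49 ± 0.13 (adjusted p = 0.015), and Atp5a1, the alpha subunit that pairs with it, differed by −0.0013 ± 0.06. Atp5c1, the gamma subunit of the rotor, measured 262, 259.96 and 240.2 TPM against 324, 347 and 322 TPM, a difference of −0.38 ± 0.06 (adjusted p = 0.0015). Of the 3 genes for subunit c, which forms the proton ring, Atp5g3 measured 349, 392 and 565 TPM against 731, 719 and 698 TPM, a difference of −0.75 ± 0.17 (adjusted p = 0.007). Atp5g1 and Atp5g2 differed by −0.24 ± 0.10 and −0.06 ± 0.10 and did not pass. Of the summed RNA of the 3 genes, Atp5g3 made up 50.4% ± 3.65 in the libraries labelled empty vector and 59.5% ± 0.425 in those labelled MCU, and with the copy Gm10175 added to the sum 29.0% ± 3.42 and 39.3% ± 0.464 (SD, n = 3 libraries each).

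Cycs, the electron carrier between complexes III and IV, rose slightly. It measured 67.6, 72.9 and 67.4 TPM in the libraries labelled empty vector and 56.0, 57.9 and 57.7 TPM in those labelled MCU, and the arms did not overlap. The difference was 0.27 ± 0.05 (adjusted p = 0.0044). With its copies it summed to 375 ± 59.5 TPM against 280 ± 44.4 TPM (SD, n = 3 libraries each).

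**Figure D2:**
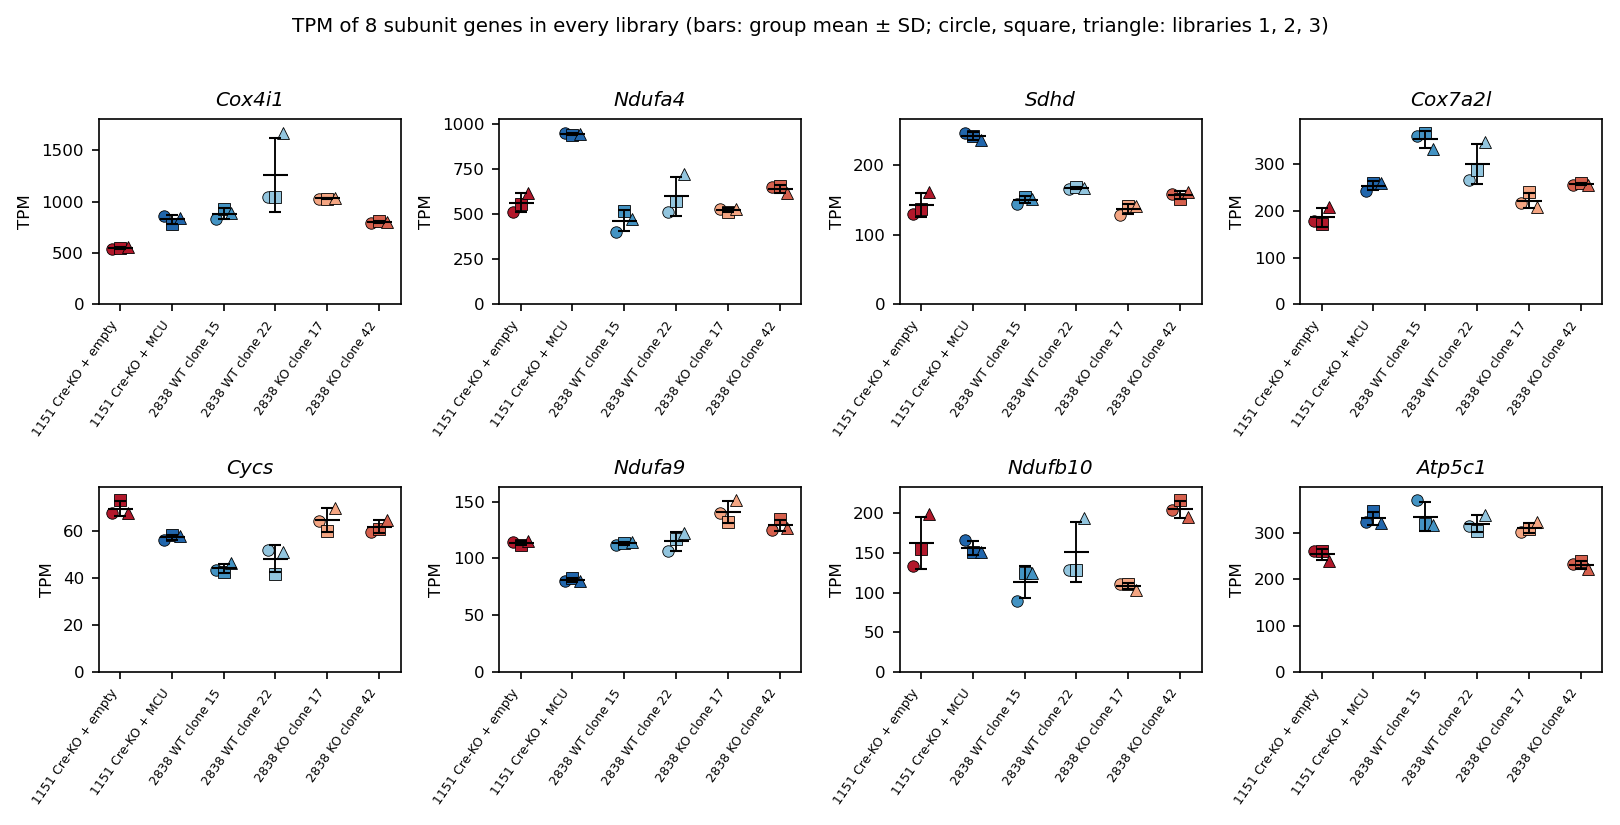
TPM of selected members in each of the 18 libraries, one panel per gene and one marker per library, grouped by line and label, with bars for the group mean ± SD. Sdhd and Cox4i1 separate the 2 arms of line 1151, and Cycs, Ndufa9 and Cox7a2l separate the labels of line 2838.

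The RNA of each complex was also summed. Complex II summed to 552 ± 8.49 TPM in the libraries labelled empty vector and 696 ± 8.85 TPM in those labelled MCU, and the arms did not overlap. Complex IV summed to 5239 ± 251 TPM against 6265 ± 56.9 TPM and complex III to 2537 ± 273 TPM against 3054 ± 37.8 TPM, again without overlap. Complex I summed to 5630 ± 636 TPM against 6449 ± 227 TPM and complex V to 10476 ± 762 TPM against 10847 ± 424 TPM, and there empty-vector replicate 3 lay within the other arm for complex I and above it for complex V (SD, n = 3 libraries in each arm throughout). All members together made up 2.45% of the RNA in the libraries labelled empty vector and 2.74% in those labelled MCU.

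**Figure D3:**
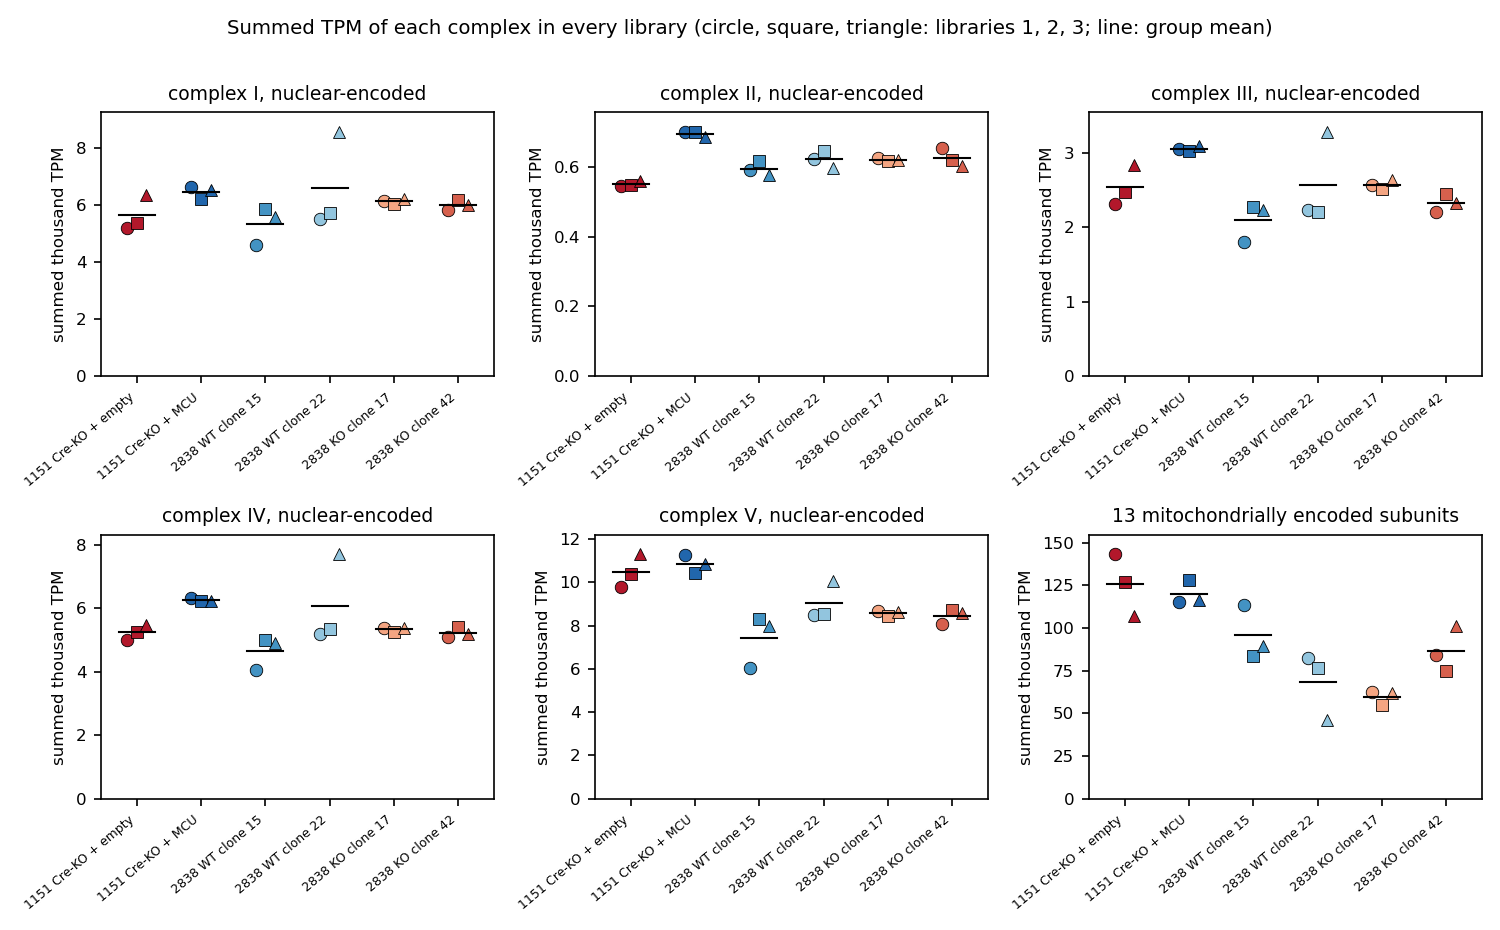
Summed TPM, on axes in units of 1000 TPM, of complexes I to V and of the 13 mitochondrially encoded subunits in each library, one marker per library and a line at each group's mean, with axes from 0. Replicate 3 of wild-type clone 22 is highest for complex I at 8546 TPM, and replicate 1 of wild-type clone 15 is lowest at 4593 TPM.

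Transcript length moved with these results. Members are short, with a median transcript of 742 bases (321.5 to 3123) beside 2634.5 bases for all tested genes. For the 26 members shorter than 600 bases that had 5 TPM in at least 15 libraries, the median deviation from the line's median, on the log2 scale, was −0.56, −0.38 and −0.09 in the 3 libraries labelled empty vector and 0.16, 0.05 and 0.14 in those labelled MCU. Other genes of that length stood at −0.24, −0.15 and −0.02 in the libraries labelled empty vector, so short genes in general moved the same way and by less. By length, 15 of 29 tested members under 600 bases fell and 3 rose, against 9 and 1 of 24 from 600 to 1000 bases and 12 and 5 of 28 longer ones. After each library was centred along transcript length, 28 members fell and 16 rose (30.1% and 29.9% of all genes) and the members' median was −0.08. The part of length in the result was not tested beyond this.

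**Figure D4:**
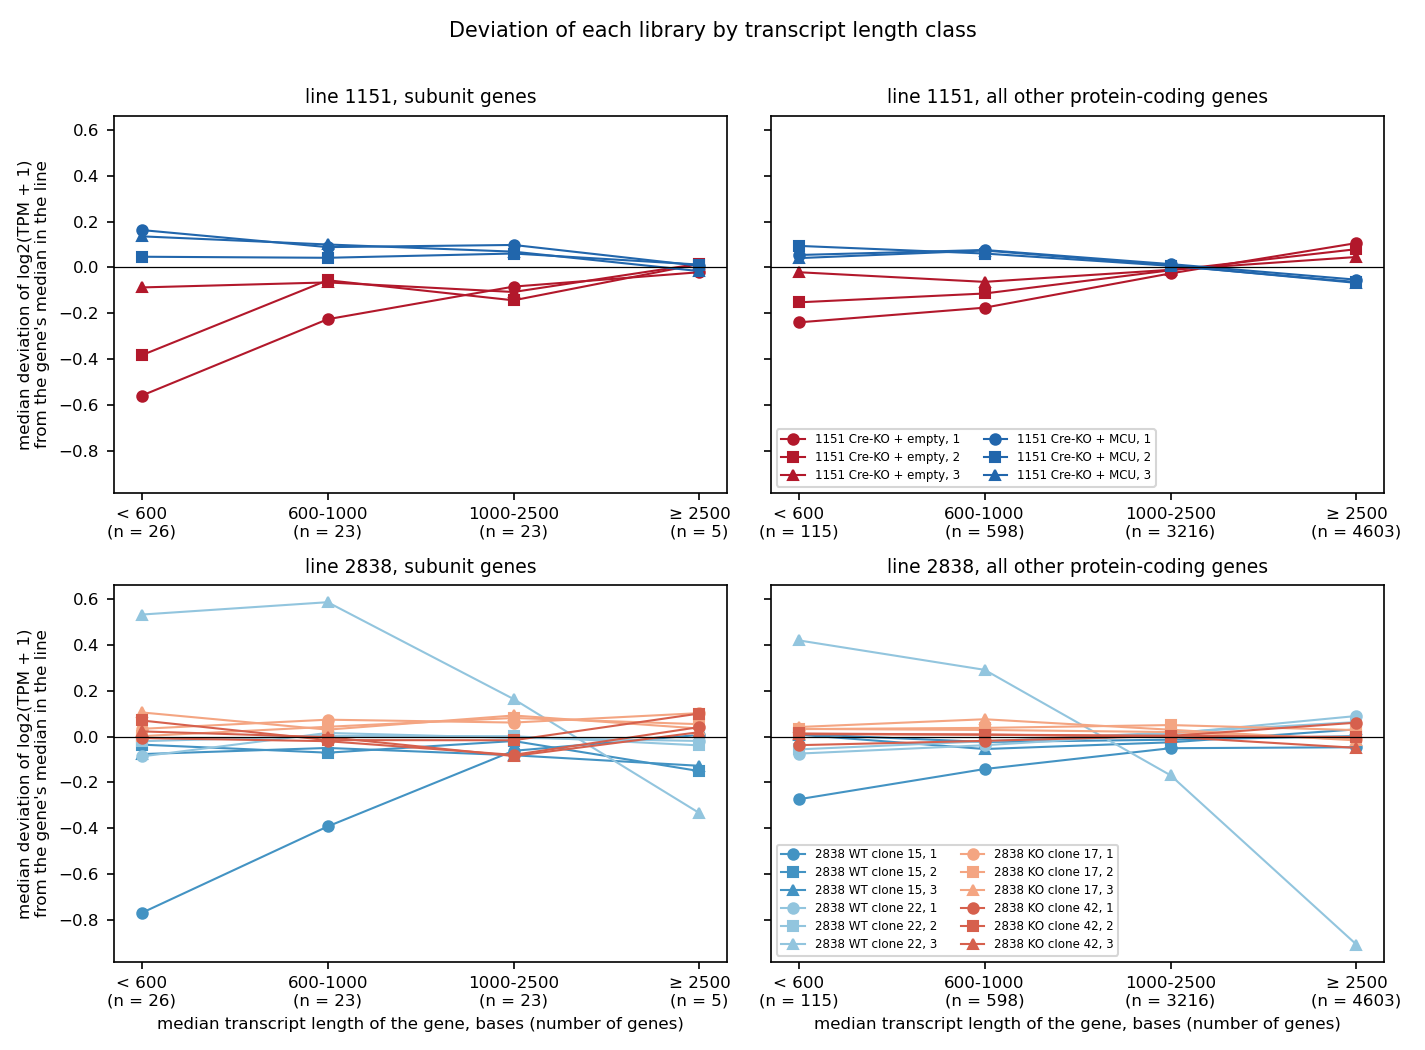
Median log2 deviation of each library from its line's median, for members and for other protein-coding genes, in classes of transcript length. In line 1151 the first 2 empty-vector libraries are lowest for members under 600 bases, at −0.56 and −0.38, and other short genes show −0.24 and −0.15.

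Replicate 3 of the empty-vector arm was closer to the other arm for most members that were low. In 49 of the 82 members, against 33.9% of all genes, replicates 1 and 2 of that arm were both below every library labelled MCU. Replicate 3 was above both of them in 41 of the 49 (83.7%), against 50.0% of such genes over the whole table, and at or above the lowest MCU library in 14 (28.6%), against 12.2%. Genes chosen for low values in replicates 1 and 2 favour a higher replicate 3 by that choice, for members and other genes alike. Without replicate 3, 44 members fell and 10 rose, among 29.0% and 33.4% of all genes.

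Most of the 9 members that rose lay on the chromosomes where the other genes had the highest median differences. In line 1151 the median difference of the other genes was 0.54 on chromosome 19, which holds Ndufs8 and Cox8a, and 0.46 on chromosome 15, which holds Cyc1. It was 0.34 on chromosome 10, which holds Atp5b, 0.31 on chromosome 17, which holds Ndufa11, and 0.27 on chromosome 6, which holds Cycs and Ndufa9. The other 2 were Cox6a1 on chromosome 5, with a median of 0.14, and Ndufa10 on chromosome 1, with a median of −0.03. More members fell than rose on chromosome 6 (3 and 2) and on chromosome 15 (2 and 1) all the same. After each chromosome was centred on its own median, Cyc1 differed by 0.17, Atp5b by 0.16, Ndufs8 by −0.05 and Cycs by −0.01, none past the threshold, and Cox8a by −0.21 in the lower direction (adjusted p = 0.043). On 18 of 19 chromosomes that hold members, the members' median lay below that of the other genes. With this centring 44 members fell and 4 rose, among 29.1% and 28.9% of all genes. Across 81 members the rank correlation of a member's difference with the median of its chromosome was 0.39, and with transcript length 0.36, both descriptions across genes that share libraries.

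**Figure D5:**
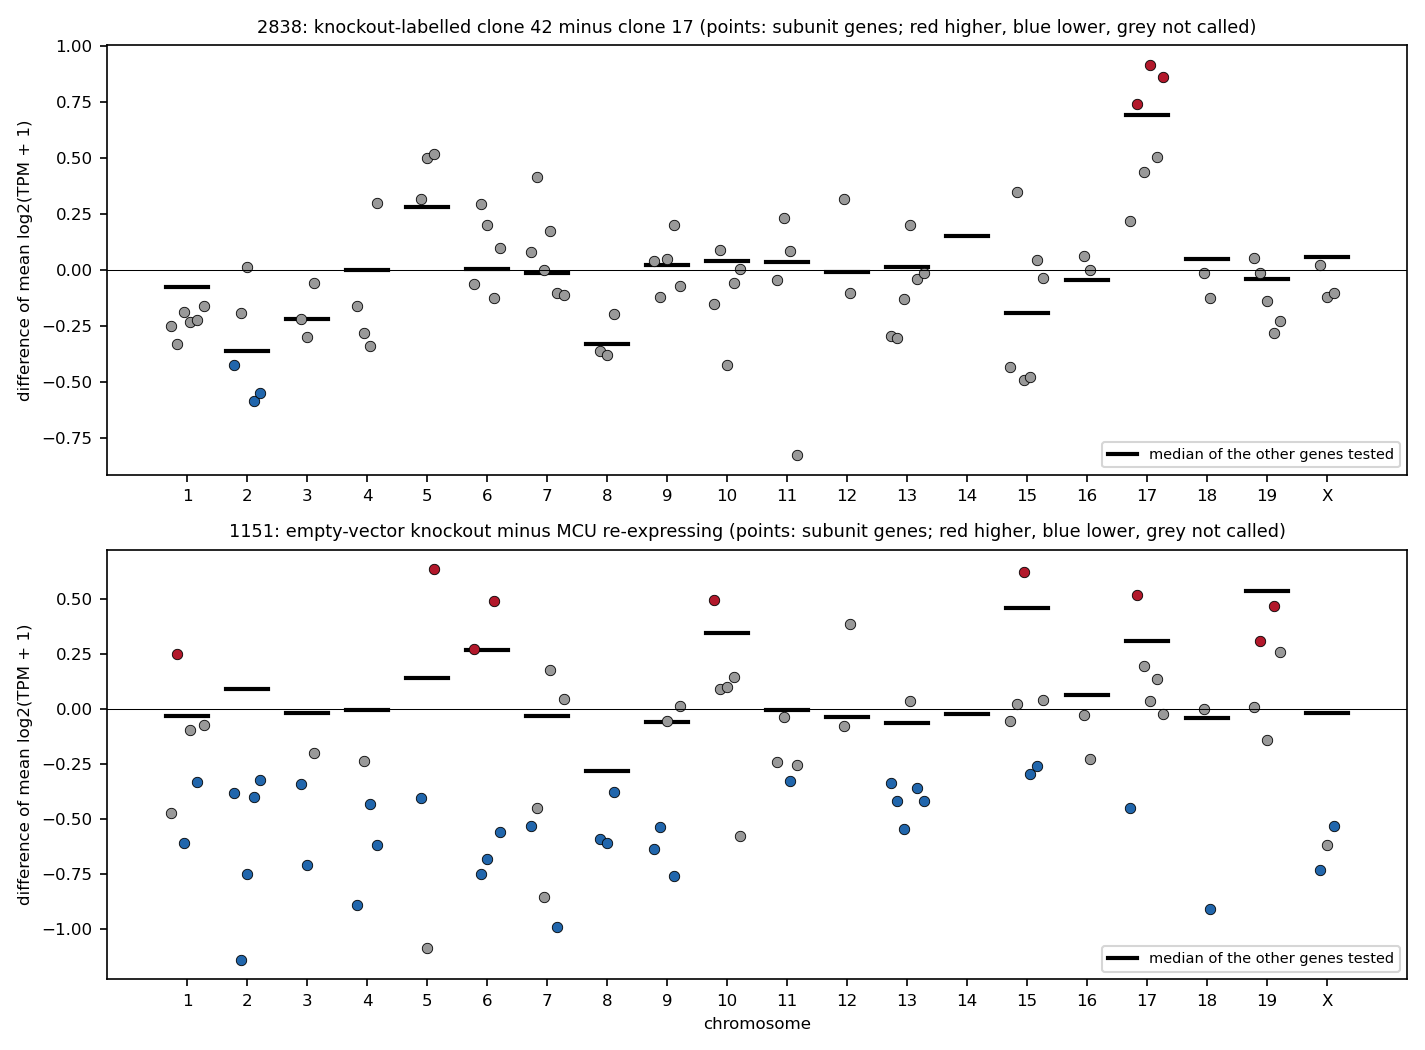
Each member's log2 difference in line 1151, and between the knockout-labelled clones of line 2838, by chromosome, with the median of the other genes of that chromosome. In line 1151 Ndufs8 and Cox8a lie on chromosome 19, whose other genes have a median of 0.54.

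Members called in 1 direction as fitted, with length centring, with chromosome centring and without replicate 3 of the empty-vector arm numbered 27 lower and 4 higher, among 23.3% and 20.4% of 11211 genes. The 27 were 11 of complex I, 2 of complex II, 2 of complex III, 6 of complex IV and 6 of complex V, and they include Ndufc2, Ndufb5, Sdhd, Sdhb, Uqcrh, Uqcrfs1, Ndufa4, Cox7b, Cox4i1, Atp5e and Atp5c1. Atp5l is 1 of the 6 of complex V, and it did not pass when summed with its copies. The 4 higher were Ndufa9, Ndufa10, Ndufa11 and Cox6a1.

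In line 2838 the design asks how clones labelled knockout differ from clones labelled wild type, and the clone is the unit. No member passed between the labels on clone means, with 0 of 82 called by limma beside 0.0763% of 11795 genes, and 0 of 82 at an unadjusted p under 0.05 (5.61% of all genes). With 2 clones in each label this fit has few degrees of freedom. With all 4 clone pairs required to pass in 1 direction, 0 of 82 were called, against 1.01% of all genes. The members' median difference was 0.07, as was that of all genes.

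Cycs, Ndufa9 and Cox7a2l did separate the labels over the 12 libraries. Cycs lay between 41.4 and 51.8 TPM in the libraries labelled wild type and between 59.5 and 69.6 TPM in those labelled knockout. Ndufa9 lay between 106 and 123 TPM against 125 and 151 TPM, so that the ranges are close. Cox7a2l ran the other way, between 265 and 366 TPM in the wild-type label against 208 and 259 TPM. Such separation with the knockout label higher was found in 2 of 82 members, against 3.53% of genes. With that label lower it was found in 1 of 82, against 1.52%. Members thus did not separate the labels more often than genes in general. On clone means the differences were 0.45 ± 0.21, 0.24 ± 0.20 and −0.44 ± 0.20, with adjusted p of 0.93, 1.0 and 0.91. Summed with its copies, Cycs stood at 144 ± 31.1 TPM in clone 15, 178 ± 6.23 in clone 22, 245 ± 16.1 in clone 17 and 246 ± 2.02 in clone 42 (SD, n = 3 libraries each), so clone 17 with its high Mcu RNA lay with clone 42. The acinar marker Cela1 separated the same labels, lower in the knockout label, and its part was not tested.

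Within the labels, the clones differed at some members. Between wild-type clones 22 and 15, 0 of 82 were called among 1.92% of genes, with 25 of 82 at an unadjusted p under 0.05 (15.0% of all genes). The members' median difference was 0.30, with 72 of 82 above 0, beside −0.16 for all genes, and the members' median was below that of the other genes on 0 of the 19 chromosomes that hold members. Between these clones of the same label the members thus lay further from all genes than in line 1151 (−0.28 beside 0.05). Without replicate 3 of clone 22 and replicate 1 of clone 15, which stood apart, the members' median was 0.05 beside 0.04 for all genes. With these libraries left out, Atp5j, Cox4i1 and Ndufb7 were higher in clone 22 and Cox7a2l was lower, 4 members among 9.38% of genes. Between clones 42 and 17, both labelled knockout, 3 rose in clone 42 and 3 fell, among 17.2% of genes (8.23% higher and 8.99% lower). Ndufb10, a membrane-arm subunit of complex I, measured 110.5, 111 and 103 TPM in clone 17 and 204, 216 and 195 TPM in clone 42, a difference of 0.92 ± 0.17 (adjusted p = 0.0041). The clones were far apart. Ndufv3 and Ndufa11 of complex I rose by 0.86 ± 0.22 and 0.74 ± 0.16, with adjusted p of 0.02 and 0.0079.

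Ndufa8 of complex I measured 145, 143 and 154 TPM in clone 17 and 101, 97.5 and 94.6 TPM in clone 42, a difference of −0.59 ± 0.14 (adjusted p = 0.016). Ndufs3 differed by −0.55 ± 0.14 (adjusted p = 0.023) and Atp5c1 by −0.43 ± 0.09 (adjusted p = 0.0094), and for these 3 genes every clone 42 library was below clone 17. The 3 that rose are on chromosome 17, whose other genes have a median of 0.69, and the 3 that fell are on chromosome 2, whose other genes have a median of −0.36. After each chromosome was centred, 0 members were called, against 15.6% of genes. The rank correlation of a member's difference with its chromosome's median was 0.54 across 81 members. The libraries of all 4 clones share 1 estimate of the spread, and once replicate 3 of wild-type clone 22 was left out, 12 members rose and 16 fell, among 20.1% and 21.4% of genes.

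Replicate 3 of wild-type clone 22 and replicate 1 of wild-type clone 15 lay furthest from their groups and in opposite directions for the members. They held 3.03% and 1.71% of RNA in members, against 2.13% to 2.36% in the other libraries of line 2838. Short members were high in the first and low in the second, at median log2 deviations of 0.53 and −0.77 for those under 600 bases. Other genes under 600 bases stood at 0.42 in the first and −0.27 in the second. Without both libraries, 3 members passed in all clone pairs, Cox8a at 0.25, Cycs at 0.46 and Uqcr11 at 0.25, all higher in the knockout label, among 5.49% of genes (2.14% higher).

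The size of the label's difference was then compared between the lines on group means. None of the 82 members passed for the interaction of line and label, against 1.10% of 12458 genes, and 8 had an unadjusted p under 0.05 (14.0% of all genes). A member past the threshold in line 1151 and not in line 2838 is therefore not shown to differ between the lines. Nor are the lines shown to be alike, as this fit has few degrees of freedom. Line 1151 has a single group per label, so the residual spread comes from the clones of line 2838 alone.

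Genes that work with the subunits were counted with the same tests. Of 46 tested assembly factors in line 1151, 19 fell (41.3%, against 27.0% of all genes) and 8 rose (17.4%, against 34.0%) in the libraries labelled empty vector, with a median of −0.17. With chromosome centring 22 fell and 3 rose. Cox20, a chaperone of the complex IV subunit Cox2, had a log2 difference of −1.80, Pet100, an assembly factor of complex IV, of −1.21, Sdhaf4, an assembly factor of complex II, of −0.99, and Sco2, a copper chaperone of complex IV, of 0.55. Of the 13 subunits encoded in mitochondrial DNA, 1 rose, mt-Nd2 of complex I, at 0.51 ± 0.12 (adjusted p = 0.0083), and 0 fell. These 13 made up 14.3%, 12.7% and 10.7% of the RNA in the libraries labelled empty vector and 11.5%, 12.8% and 11.7% in those labelled MCU.

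Among 13 tested transcriptional regulators of the chain in line 1151, 6 rose (46.2%, against 34.0% of all genes) and 3 fell (23.1%, against 27.0%). With chromosome centring 4 rose and 3 fell, and the highest difference among them was 0.89 in place of 1.34. Myc, a growth regulator, rose by 1.34, Pprc1, a coactivator, by 1.34 and Nrf1, which binds the motif shown in the promoters above, by 0.69. Esrra, a nuclear receptor of respiratory genes, and Ppargc1a, its coactivator, fell, with log2 differences of −1.02 and −0.73. Ppargc1a was low in both arms, at 1.36, 0.873 and 1.62 TPM in the libraries labelled empty vector against 2.89, 2.75 and 2.60 TPM. In line 2838, 0 genes of these 3 lists were called on clone means. Between clones 42 and 17, 6 of 13 mitochondrially encoded subunits rose (46.2%, against 8.23% of all genes, with a median of 0.64). Of 46 assembly factors 1 rose and 1 fell (2.2% each, against 8.23% and 8.99% of all genes).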

How the data were processed

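Expression was measured in 18 libraries of 2 mouse pancreatic tumour cell lines, in 6 groups of 3 libraries. The authors deposited a table of TPM (transcript abundance scaled for length and to a fixed total per library) for each gene, and the submitters' processing notes name Salmon, DESeq2 and genome mm10; tool versions are not given in the sources used here. TPM keeps no depth, so depth per library is unknown and no interval or count test was used.

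Values were compared as log2(TPM + 1) by linear models (limma 3.58.1, R 4.3.3) whose variance prior followed the mean level, for genes with 1 TPM in 3 libraries of the fit, with Benjamini-Hochberg adjustment over all genes tested, called at an adjusted p under 0.05. Line 1151 was tested on 6 libraries and line 2838 on 12, on clone means and on clone pairs. Named genes were the core and isoform subunits, and up to 4 called members with the largest change in each direction per complex, with 5 TPM in the higher arm. Atp5k, Atp5j, Ndufb7, Uqcr11 and the named assembly factors and regulators fall outside this rule and were chosen after their values were seen. Members named only for a motif, a copy or a level at 0 also fall outside it. Near-identical copies were found with BLAST 2.17.0. Chromosomes and lengths came from GENCODE M21, with 91 of 93 members matched, and promoters from RefSeq on GRCm38.p6; the NRF1 and YY1 motifs are given by name. The fits were run on simulated data with a capped spread, without outlying libraries or shifts shared along length or chromosome. That run checked the code and not the results. Values of 1 member and 1 allele are not reported here. The members and gene lists were chosen with earlier results of these data known.

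Alternatives tried are scaling, filters, pseudocount, left-out libraries, length and chromosome centring and summed copies.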

Additional observations from a re-analysis of the deposited data

Results flagged for a closer look

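Copies of 2 members carried signal that the comparisons of subunits did not use. Gm10221, a near-identical copy of Atp5l, had a mean of 284 TPM in the libraries labelled empty vector of line 1151, with 461.9, 391.3 and 0 TPM in its replicates, against 196.4, 0 and 174.6 TPM in the libraries labelled MCU. It was listed at 0 in all 12 libraries of line 2838. Gm10108, a copy of Cycs, had a mean of 88.0 TPM in the libraries labelled empty vector, with 176.5, 87.6 and 0 TPM, and was listed at 0 in the other 15 libraries. Gm10053, another copy of Cycs, had a mean of 182 TPM in the knockout-labelled libraries of line 2838, from 168.9 to 191.2 TPM, against 65.9 to 130.5 TPM in the wild-type-labelled ones. The 0 in single libraries of an arm was not tested, and with near-identical sequences a listed 0 does not show that the copy was silent.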

How the results depend on the processing

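In line 1151 the count of called members was 45, and 43 with the replicate block (8 higher, 35 lower), which changed it within 1.5 times. The numbers are not shown to pair libraries: 0 of 3 same-numbered pairs in line 1151 and 6 of 18 in line 2838 had deviations correlated over 0.1, and 0 and 8 correlated best with their own number. A minimum log2 difference of 0.5 left 23. Leaving out single libraries gave 37 to 54 calls. In line 2838 the block gave 7 calls between clones 42 and 17, and 0 in all clone pairs and between clones 22 and 15. In that line all clone pairs gave 1 call in the fit of all 18 libraries and 3 without replicate 3 of clone 22 and replicate 1 of clone 15, and leaving out single libraries gave 0 to 1. Clones 22 and 15 gave 2 calls in the 18-library fit, 2 with length centring and 4 without those libraries, and 0 to 2 with single libraries left out. Clones 42 and 17 gave 1 call with median-of-ratios scaling, 13 in the 18-library fit, 18 with length centring, 0 with chromosome centring, 39 without both libraries and 3 to 28 with single libraries left out, 28 without replicate 3 of clone 22. The clone-mean test gave 2 calls with 12 libraries as units, and the interaction gave 1 without a filter. The cause of these changes was not tested.

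The median of line 1151 moved with length centring to −0.074 in complex I, −0.19 in complex II, −0.042 in complex III and −0.26 in complex IV. Median-of-ratios scaling gave −0.33 in complex II and −0.15 in complex V, quantile normalization gave −0.14 in complex V, and chromosome centring gave −0.31 there, with −0.21 to −0.034 when single libraries were left out. In line 2838 the median of complex II was −0.16 with median-of-ratios scaling, 0.030 without both libraries and 0.048 without clone 42. Without clone 15 the median was −0.033 in complex III and −0.17 in complex V. Chromosome centring reversed the direction in line 1151 of Cox8a (−0.21), Cycs (−0.012), Ndufs7 (−0.19), Ndufs8 (−0.053) and Ndufv2 (−0.17), each called with the centring, without it or both, and turned Ndufv1 (−0.26), which was called in neither. Length centring moved the calls in line 1151 to 16 higher and 28 lower. Of the other values for named members, 3139 kept their direction and side of the threshold, 172 changed sign without passing the threshold in either setting, 84 lost the threshold and 54 gained it. Length and chromosome centring, the removal of both libraries together and the summing of copies were chosen after seeing the data. TPM without counts limits how well low members such as Cox6a1 can be judged.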
